A study of Mus musculus with 6 samples.

Results

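The genes described here encode 8 chaperones of the endoplasmic reticulum (ER), the compartment in which sperm surface proteins are folded. They were taken as all non-control probes whose gene name is Clgn, Calr3, Pdilt, Canx, Calr, Pdia3, Pdia4 or Pdia6, which gave 10 of the 55681 probes on the array and 8 of the 26933 genes tested. Clgn, Calr3 and Pdilt are the 3 testis-specific members, with 4 probes, and the other 5 are their general paralogs, with 6 probes. The arrays compare whole testes of Gipr-/- mice (knockout, n = 3) with whole testes of Gipr+/+ mice (wild type, n = 3), all C57BL/6 and 8 weeks old, with 1 array per sample. Gipr encodes the receptor for the gut hormone GIP, which signals through cAMP. The labels give neither the part of the gene that was removed nor any restriction to a cell type.

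Newly made glycoproteins in the ER carry a sugar chain that is trimmed and read by lectin chaperones. Calnexin (Canx), in the membrane, and calreticulin (Calr), in the lumen, hold proteins whose chain still has a single glucose, and the disulfide isomerase Pdia3 docks on both and forms the disulfide bonds of their clients. Male germ cells add their own versions of these chaperones: calmegin (Clgn) is the germ cell form of calnexin, Calr3 (calsperin) that of calreticulin, and Pdilt a relative of the disulfide isomerases that lacks their usual catalytic cysteine pairs. In the mouse, loss of any of these 3 leaves sperm production intact but makes males infertile or nearly so, because the sperm surface protein ADAM3 is not matured and the sperm do not pass into the oviduct.

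The promoter windows of 3 general paralogs (Canx, Calr and Pdia6) carry an element that those of Calr3, Pdilt, Pdia3 and Pdia4 do not, and 5 of these windows are shown for that contrast. The ER stress element is bound by the stress factor ATF6 together with the general factor NF-Y, which reads its CCAAT part. It was searched as CCAAT, any 9 bases and then CCACG, on both strands in the 250 bases before each annotated start (RefSeq, GRCm38.p6), where 7 of the 8 members had a window, and the missing one is Clgn. The element stood in 1 window each of Canx, Calr and Pdia6, against 37 of all 32851 windows (0.113%). In the lines that follow, capitals mark CCAAT on either strand and the ER stress element, which contains such a box.
Canx, chr11:50325674-50325923, minus strand: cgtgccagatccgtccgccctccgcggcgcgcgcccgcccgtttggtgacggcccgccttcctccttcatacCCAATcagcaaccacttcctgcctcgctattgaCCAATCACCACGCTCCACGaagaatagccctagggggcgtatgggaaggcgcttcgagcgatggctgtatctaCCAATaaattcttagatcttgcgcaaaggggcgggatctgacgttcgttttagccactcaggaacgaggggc
Calr, chr8:84846932-84847181, minus strand: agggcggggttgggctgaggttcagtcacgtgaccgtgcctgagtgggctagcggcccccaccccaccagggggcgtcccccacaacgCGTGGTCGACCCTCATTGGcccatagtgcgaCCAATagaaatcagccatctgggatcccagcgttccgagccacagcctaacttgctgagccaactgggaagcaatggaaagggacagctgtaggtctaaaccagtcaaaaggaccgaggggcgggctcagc
Pdia6, chr12:17266339-17266588, plus strand: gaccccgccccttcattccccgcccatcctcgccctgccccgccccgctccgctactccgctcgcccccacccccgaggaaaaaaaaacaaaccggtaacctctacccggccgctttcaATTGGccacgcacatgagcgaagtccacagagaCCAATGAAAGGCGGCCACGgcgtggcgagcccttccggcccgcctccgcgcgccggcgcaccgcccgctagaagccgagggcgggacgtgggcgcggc
Calr3, chr8:72443779-72444028, minus strand: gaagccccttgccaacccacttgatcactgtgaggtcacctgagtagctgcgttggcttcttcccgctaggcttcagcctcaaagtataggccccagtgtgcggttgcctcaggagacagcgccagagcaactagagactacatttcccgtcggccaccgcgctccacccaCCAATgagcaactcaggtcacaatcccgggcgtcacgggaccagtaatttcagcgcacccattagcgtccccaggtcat
Pdilt, chr7:119523483-119523732, minus strand: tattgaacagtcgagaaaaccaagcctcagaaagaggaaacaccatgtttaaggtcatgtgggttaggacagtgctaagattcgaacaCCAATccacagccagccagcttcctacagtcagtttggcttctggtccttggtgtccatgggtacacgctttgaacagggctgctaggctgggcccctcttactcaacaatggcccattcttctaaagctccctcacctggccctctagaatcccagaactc

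Pdia3 and Pdia4 had no match to the whole element, nor did a further annotated window of Calr3. All 7 genes had at least 1 CCAAT, as did 33.8% of all windows: Canx and Pdia4 had 3, Calr, Pdia3 and Pdia6 had 2, and Pdilt and each window of Calr3 had 1. The related element II (ATTGG, any 1 base and then CCACG, in 0.0304% of windows) and the full cAMP response element (TGACGTCA, in 1.55% of windows) were in 0 of the members' windows. Its core TGACG, found in 17.8% of windows, occurred 2 times in Canx and 1 time each in Pdia3 and in the printed window of Calr3. The Pdilt window held 50.4% G and C, the printed Calr3 window 58.4%, and the windows of the general paralogs between 59.6% (Canx) and 75.6% (Pdia3), where the median of all windows was 52.4%. These matches describe letters in a window and say nothing of what binds there in testis.

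All 10 probes were well above background on all 6 arrays, and each is a single spot per array. Between 70.6% and 76.0% of non-control spots on an array met that mark, and 0 were saturated. The arrays lie on 1 slide, with the knockout samples in row 1 and the wild-type samples in row 2, and a position effect cannot be told apart from genotype. Values are the log2 of the scanner's processed signal minus the 75th percentile of the array. They compare a probe between arrays, and since probes differ in how brightly they bind, no gene's level is set against another's. The targeted gene read -2.35, -2.31 and -2.12 in knockout testes, against 0.08, 0.15 and 0.44 in wild-type testes, which is 5.58-fold lower (limma adjusted p = 0.00195). Its probe may lie outside the removed part, which the labels do not give.

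None of the 8 chaperone genes differed between genotypes beyond the spread of the arrays. In the fit over all 26933 genes, 0 of 8 members passed an adjusted p of 0.05 in limma, where 0.0705% of all genes did (0.0631% lower and 0.00743% higher in the knockout). At an unadjusted p under 0.05 the count was also 0 of 8, against 7.46% of all genes. The members' adjusted p lay between 0.756 (Pdilt) and 0.969 (Clgn), and for all 8 the knockout and wild-type arrays overlapped, where 13.1% of all genes had groups that did not overlap. There were 3 members higher and 5 lower in the knockout, with a median difference of -0.03 on the log2 scale, while 50.6% of all genes were higher and their median was 0.00172. The largest bound of any member's 95% interval was a log2 difference of -0.46, for Pdia4. In whole testis, fewer cells of a type and less RNA per cell cannot be told apart.

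**Figure D1:**
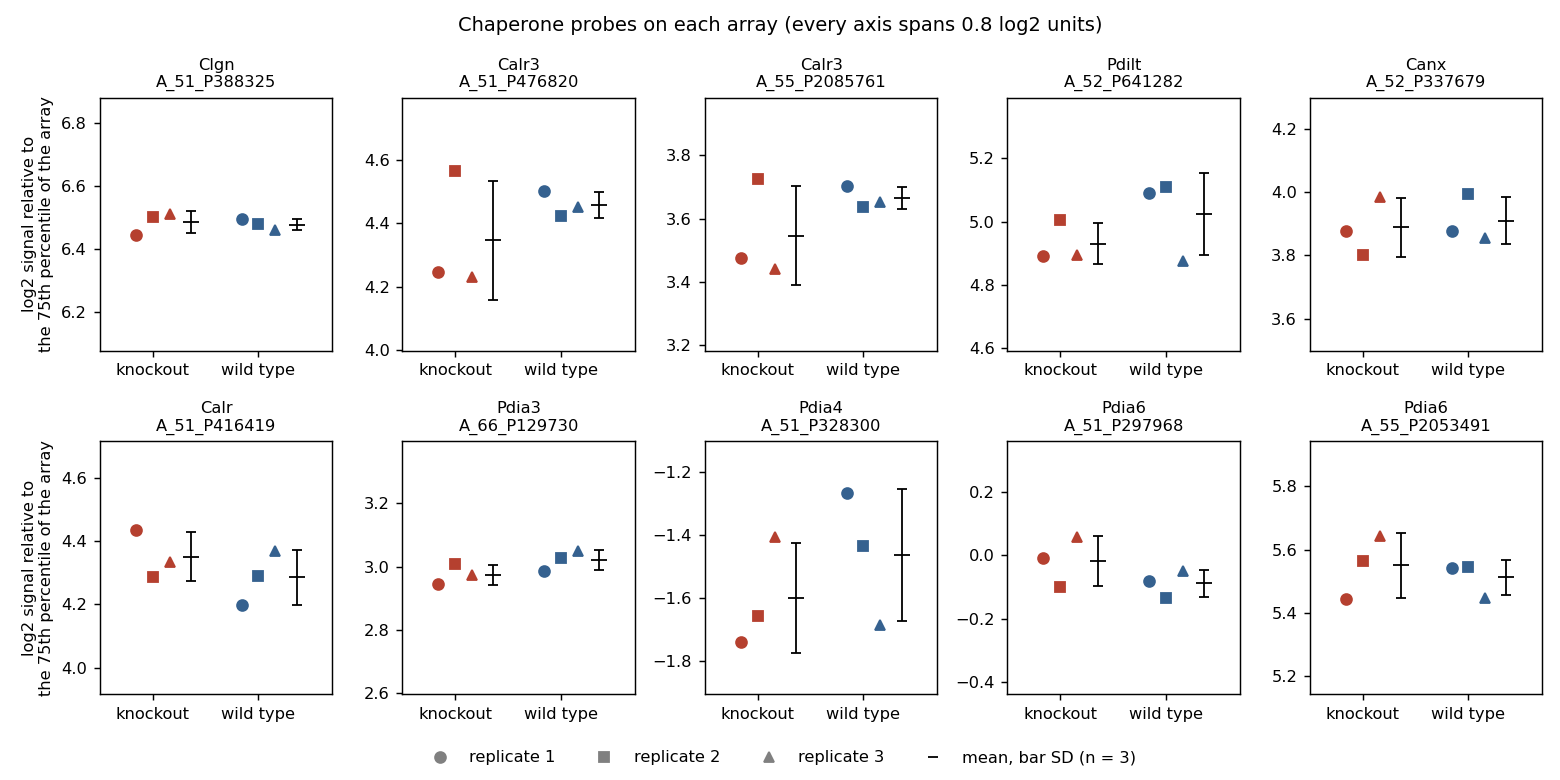
Log2 signal relative to the 75th percentile of the array for the 10 chaperone probes, with the 3 knockout arrays left and the 3 wild-type arrays right in each panel and a bar for the mean and SD. Every axis spans 0.8 log2 units. The groups overlap in all 10 panels, and both Calr3 probes place knockout replicate 2 above the other 2 knockout arrays.

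Clgn was the steadiest member. Its product pairs with newly made ADAM1A and ADAM2, the subunits of fertilin, and helps them assemble. The processed signal of its probe (A_51_P388325, chr8:85950608-85950667 on mm9, plus strand) was 68575, 64974 and 69984 in knockout testes and 66695, 66117 and 67772 in wild-type testes. After scaling it read 6.45, 6.50 and 6.51 in the knockout and 6.49, 6.48 and 6.46 in the wild type. The 6 values had an SD of 0.0251, with knockout arrays both above and below every wild-type array. The difference was 0.01 ± 0.05 (log2, SE; limma adjusted p = 0.969), and its 95% interval ran from -0.12 to 0.14, so that changes beyond a fold of 0.920 or 1.10 lay outside it.

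Calr3 was read by 2 probes that lie 549 bases apart in the transcript. The gene's product is needed for mature ADAM3 in mouse sperm. The brighter probe (A_51_P476820, chr8:74948462-74948521 on mm9, minus strand) read 4.25, 4.56 and 4.23 in knockout testes, against 4.50, 4.42 and 4.45 in wild-type testes. The other (A_55_P2085761, chr8:74955307-74955366, minus strand) read 3.48, 3.72 and 3.44 in knockout testes, against 3.70, 3.64 and 3.65 in wild-type testes. On both probes knockout replicates 1 and 3 lay below every wild-type array and knockout replicate 2 above every one. Apart from a constant offset, the probes differed by at most 0.0429 on any array. The spread in the knockout (SD 0.19, n = 3) was accordingly wider than in the wild type (SD 0.04, n = 3), a difference in spread that was not tested. The gene's difference was -0.11 ± 0.10 (log2, SE; limma adjusted p = 0.761), with an interval from -0.36 to 0.13, and the second probe gave -0.12 ± 0.09 (adjusted p over all probes = 0.728). Without knockout replicate 2 the difference was -0.22 (limma adjusted p = 0.244), and without knockout replicate 3 it was -0.05 (0.940). Over all alternatives that p ranged from 0.244 to 0.949.

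Pdilt binds Clgn in the mouse testis and is also needed for ADAM3. Its single probe (A_52_P641282, chr7:126630135-126630194 on mm9, minus strand) read 4.89, 5.01 and 4.89 in knockout testes and 5.09, 5.11 and 4.87 in wild-type testes. Here wild-type replicate 3 was the lowest of the 6, and the 3 knockout arrays lay inside the wild-type range. The difference was -0.09 ± 0.08 (log2, SE; limma adjusted p = 0.756), with an interval from -0.30 to 0.11. Leaving out 1 array moved it between -0.17 (without wild-type replicate 3) and -0.05 (without wild-type replicate 2). Pdilt shares chromosome 7 with Gipr, where 16 of the 19 genes that passed lie, and its probe is 106.9 Mb away from the Gipr probe. Within 5 Mb of the Pdilt probe 0 of 112 tested genes passed, against 7 of 140 within 5 Mb of the Gipr probe, Gipr included. The other genes that passed on chromosome 7 lie farther from Gipr than that. An effect of the shared chromosome on Pdilt was not tested.

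Among the general lectin chaperones, Canx and Calr had differences of opposite sign, both within the spread. Canx (A_52_P337679, chr11:50108047-50108106 on mm9, minus strand) read 3.88, 3.80 and 3.99 in knockout testes and 3.88, 3.99 and 3.86 in wild-type testes. Its difference was -0.02 ± 0.07 (log2, SE; limma adjusted p = 0.945; interval -0.20 to 0.16). Calr, which also stores calcium (A_51_P416419, chr8:87366192-87366251, minus strand), read 4.44, 4.29 and 4.33 in knockout testes and 4.20, 4.29 and 4.37 in wild-type testes. Knockout replicate 1 was the highest and wild-type replicate 1 the lowest, with the other 4 arrays between them. The Calr difference was 0.07 ± 0.07 (limma adjusted p = 0.802; interval -0.11 to 0.24), and it ran between 0.02 (without wild-type replicate 1) and 0.11 (without wild-type replicate 3) when 1 array was left out. Its probe lies 1.416 Mb from that of Clgn on chromosome 8.

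The 3 general disulfide isomerases, which form and rearrange disulfide bonds, did not pass the test either, and their 95% intervals all include 0. Pdia3 (ERp57; A_66_P129730, chr2:121263343-121263402 on mm9, plus strand) read 2.94, 3.01 and 2.97 in knockout testes and 2.99, 3.03 and 3.05 in wild-type testes. This was a difference of -0.05 ± 0.05 (log2, SE; limma adjusted p = 0.813; interval -0.18 to 0.09), with 2 of 3 knockout arrays below every wild-type array. Pdia4 (ERp72; A_51_P328300, chr6:47746516-47746575, minus strand) had the dimmest probe of the set, at 236, 228 and 290 in processed signal in knockout testes and 307, 274 and 239 in wild-type testes. After scaling it read -1.74, -1.66 and -1.41 in the knockout and -1.27, -1.44 and -1.69 in the wild type, with an SD of 0.17 in knockout and 0.21 in wild-type testes (n = 3 each). Its difference of -0.14 ± 0.13 (limma adjusted p = 0.777) has an interval from -0.46 to 0.19, and leaving out 1 array moved the Pdia4 difference between -0.25 (without wild-type replicate 3) and -0.04 (without wild-type replicate 1).

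Pdia6 (P5), a disulfide isomerase that also acts on the stress sensor IRE1, was read by 2 probes 253 bases apart. The brighter (A_55_P2053491, chr12:17291070-17291129 on mm9, plus strand) read 5.44, 5.56 and 5.64 in knockout testes and 5.54, 5.55 and 5.45 in wild-type testes. The dimmer (A_51_P297968, chr12:17291323-17291382, plus strand) read -0.01, -0.10 and 0.06 in knockout testes and -0.08, -0.13 and -0.05 in wild-type testes. Knockout replicate 3 was the highest array on both probes, knockout replicate 1 was the lowest on the brighter and the next to highest on the dimmer, and the probes differed by up to 0.133 after their offset was removed. Their differences were 0.04 ± 0.07 (log2, SE; limma adjusted p = 0.887 over all genes; interval -0.14 to 0.21) and 0.07 ± 0.07 (0.770 over all probes). Of the 10 chaperone probes 0 passed in limma, where 0.0463% of all 38884 did, and 0 were at an unadjusted p under 0.05, where 7.66% of all probes were.

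**Figure D2:**
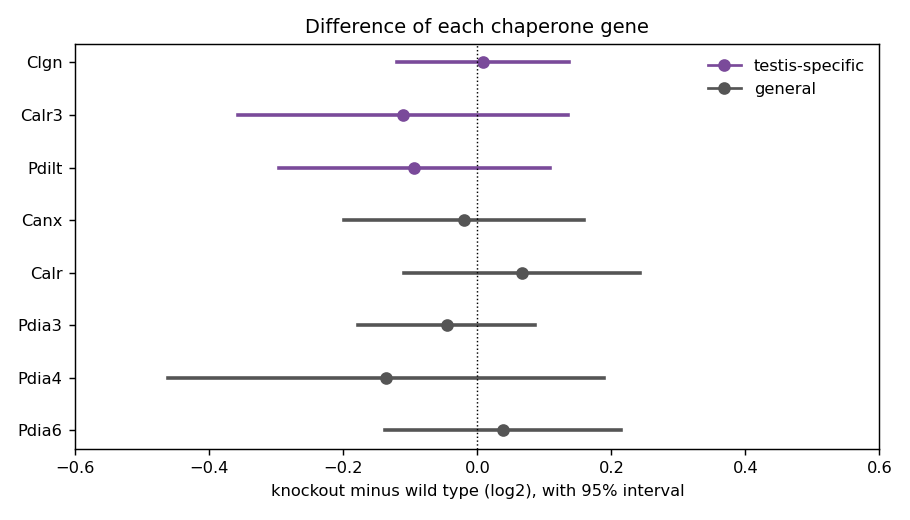
Log2 difference of each chaperone gene between knockout and wild type (positive where higher in the knockout), with its 95% interval from limma. Testis-specific members are in purple and general paralogs in grey. All 8 intervals include 0, from the narrow one of Clgn (-0.12 to 0.14) to the wide one of Pdia4 (-0.46 to 0.19).

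Within a genotype, most members varied less than the median of all tested genes. The median SD within a genotype was 0.08 over the 8 members and 0.11 over all tested genes, and 6 of the 8 members lay below the median of all genes, the exceptions being Calr3 and Pdia4. The lowest was Clgn at 0.0276 and the highest Pdia4, the dimmest member, at 0.193. Members were not matched to other genes by brightness, and the part of brightness in this spread was not tested. The median size of a member's difference was 0.06, against 0.08 over all tested genes.

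Whether a testis-specific chaperone moved apart from its general relative was asked by subtracting the paralog within each array. For Clgn minus Canx the knockout and wild-type means differed by 0.03 ± 0.07 (log2, SE, n = 3 each; exact two-sided permutation test, p = 0.7). For Calr3 minus Calr the difference was -0.18 ± 0.16 (exact p = 0.3). As a deviation from the mean of the 6 arrays, Calr3 minus Calr was -0.27, 0.19 and -0.19 in knockout testes and 0.22, 0.05 and 0.00 in wild-type testes, so that knockout replicate 2 lay near wild-type replicate 1. The difference was -0.32 without knockout replicate 2 and -0.09 without knockout replicate 1. Pdilt minus Pdia3 differed by -0.05 ± 0.09, Pdilt minus Pdia4 by 0.04 ± 0.13 and Pdilt minus Pdia6 by -0.13 ± 0.08 (exact p = 0.7, 0.6 and 0.3). With 20 ways to split the arrays the smallest p is 0.1, and adjusted over the 5 pairs all were at 0.7. The groups overlapped in all 5 pairs.

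**Figure D3:**
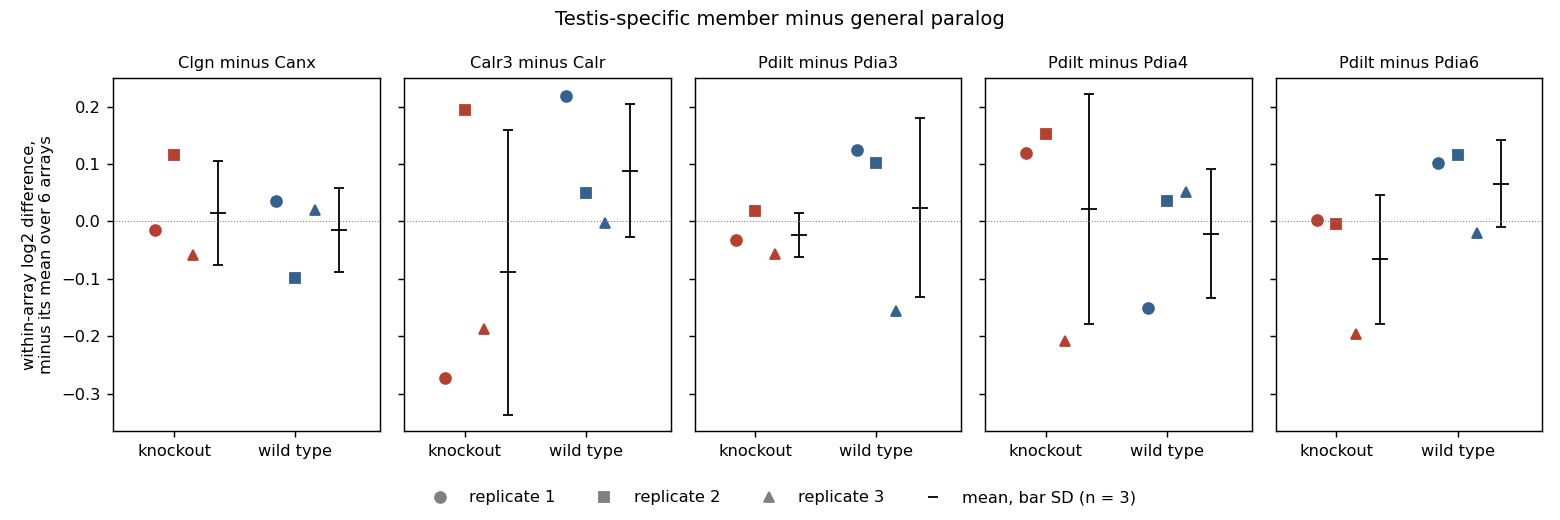
Within-array log2 difference between a testis-specific member and a general paralog, minus its mean over the 6 arrays, with knockout arrays left, wild-type arrays right and a bar for the mean and SD. The groups overlap in all 5 panels, and Calr3 minus Calr has the widest knockout spread (SD 0.25).

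Calr3 shared part of its array order with elongating spermatid markers, and Pdilt part of its order with round spermatid markers. As a deviation from its own 6-array mean, Calr3 stood at -0.16, 0.16 and -0.17 in knockout replicates 1, 2 and 3 and at 0.10, 0.02 and 0.05 in the wild-type replicates. The median of 7 elongating spermatid markers stood at -0.05, 0.09 and -0.09 in the knockout and at 0.05, 0.00 and -0.03 in the wild type. Both therefore had knockout replicate 2 highest and wild-type replicate 1 next, with knockout replicates 1 and 3 lowest. Pdilt stood at -0.09, 0.03 and -0.08 in the knockout and at 0.11, 0.13 and -0.10 in the wild type. The median of 8 round spermatid markers stood at -0.04, 0.03 and -0.12 in the knockout and at 0.05, 0.09 and -0.02 in the wild type. Wild-type replicates 1 and 2 were highest in both, but the lowest was wild-type replicate 3 for Pdilt and knockout replicate 3 for the markers. Clgn followed neither list, at -0.0355, 0.0187 and 0.0292 in the knockout and 0.0133, -0.0033 and -0.0224 in the wild type. Neither likeness was particular to 1 list. Knockout replicates 1 and 3 were also the lowest arrays for round spermatid markers. Wild-type replicates 1 and 2 were also highest for Leydig markers (0.1206 and 0.4085), with wild-type replicate 3 close behind at 0.1195. The part of spermatid content in the values of Calr3 and Pdilt was not tested.

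Of the markers, 5 of 7 for elongating and 7 of 8 for round spermatids were lower in the knockout. For pachytene spermatocytes 4 of 6 were higher, and 50.6% of all genes were higher. Of these 21 markers 0 passed in limma. At an unadjusted p under 0.05 there was 1, where 7.46% of all genes were (Odf1, a sperm tail protein, at -0.30 ± 0.11). The acrosomal protein gene Acrv1 read -0.21 ± 0.09, the tail gene Akap4 -0.19 ± 0.11 and the meiotic gene Sycp3 0.12 ± 0.08 (log2, SE; limma adjusted p = 0.662, 0.688 and 0.710). Smaller differences were read for the spermatid markers Prm1 (-0.0275), Prm2 (-0.0154), Tnp1 (0.0063), Tnp2 (0.0023) and Acr (0.014). All 21 markers of the labelled tissue's germ cells were tested, as were 8 of 8 Sertoli, 7 of 8 Leydig, 4 of 4 myoid and 5 of 6 macrophage markers. Sertoli markers had a median of 0.10, Leydig markers -0.44, macrophage markers -0.05 and myoid markers 0.08, with 0 genes passing in limma and 4 of these 24 at an unadjusted p under 0.05 (2 Sertoli, 1 Leydig and 1 myoid), where 7.46% of all genes were. Of 3 blood markers 2 were tested, 1 higher and 1 lower. Of 4 epididymis markers, 3 were too dim to be tested and Adam7 read between -6.13 and -5.29 over the 6 arrays. The median deviation of the 7 Leydig markers was -0.79 in knockout replicate 3. Without that array the count of members higher in the knockout was 1 of 8, with Clgn at -0.0043 and Pdia6 at -0.009. A link between Leydig content and this count was not tested.

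**Figure D4:**
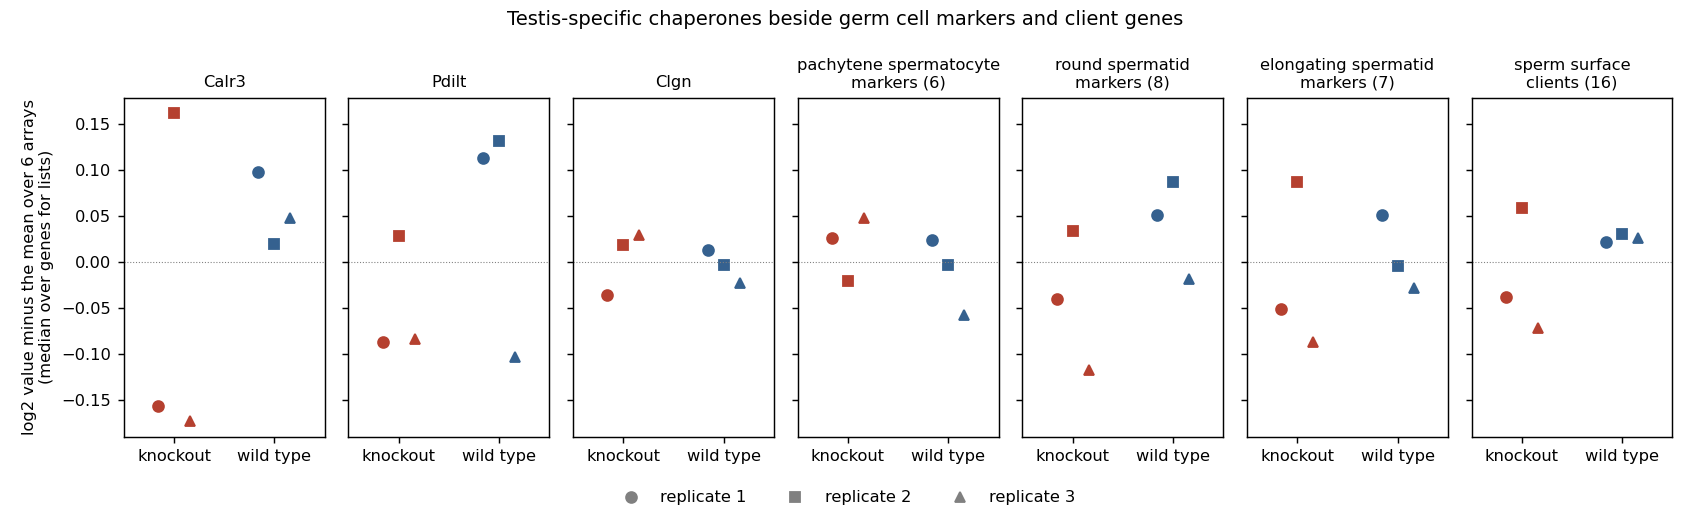
Values of the 3 testis-specific chaperones on each array, minus the mean over the 6 arrays on the log2 scale, beside the medians of pachytene spermatocyte, round spermatid and elongating spermatid markers and of sperm surface client genes. Knockout arrays are left and wild-type arrays right. Knockout replicate 2 is the highest array for Calr3, elongating spermatid markers and client genes.

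RNA of genes for the sperm surface proteins served by these chaperones, and for other factors in ADAM3 maturation, was not called either. Of 16 such genes, 5 were higher (50.6% of all genes were) and 11 lower in the knockout. Their median was -0.03, with 0 past the threshold in limma. Prss37, a protease-like protein needed for ADAM3, read 5.98, 6.37 and 6.04 in knockout testes and 6.38, 6.28 and 6.32 in wild-type testes. In the knockout, replicate 2 alone reached the wild-type values, as for Calr3. The difference was -0.20 ± 0.11 (log2, SE; adjusted p = 0.687). Adam1a read -0.16 ± 0.09, the tyrosine sulfation enzyme gene Tpst2 -0.12 ± 0.07 and Ace, the angiotensin-converting enzyme, -0.19 ± 0.12 (limma adjusted p = 0.688, 0.689 and 0.697).

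Adam3 and Adam2, named for their role in this pathway after their values were seen, had small differences. Adam3 read 7.16, 7.37 and 7.07 in knockout testes and 7.20, 7.22 and 7.26 in wild-type testes, again with knockout replicate 2 highest, and differed by -0.03 ± 0.09 (log2, SE; limma adjusted p = 0.925). Adam2, a fertilin subunit, read 5.50, 5.42 and 5.40 in knockout testes and 5.28, 5.37 and 5.38 in wild-type testes. Groups did not overlap for 1 of the 16, Adam2, where 13.1% of all genes had such groups, and Adam2 differed by 0.10 ± 0.06 (adjusted p = 0.701).

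Genes of the sugar-reading cycle around Canx and Calr were not called. Of 14 tested, 9 were higher (50.6% of all genes were) and 5 lower, with a median of 0.04 and 0 past the threshold. At an unadjusted p under 0.05 there were 2, both higher, where 3.73% of all genes were higher at that level. Edem2, which hands misfolded glycoproteins to degradation, read -2.22, -2.20 and -2.18 in knockout testes and -2.41, -2.54 and -2.38 in wild-type testes, with no overlap. Its difference was 0.243 ± 0.065 (log2, SE; limma adjusted p = 0.632). Uggt2, of the family that puts glucose back on unfolded proteins, read 0.16 ± 0.06, the lectin gene Erlec1 0.13 ± 0.06 and the cargo receptor gene Lman1 -0.17 ± 0.07 (limma adjusted p = 0.662 for all 3). Groups did not overlap for 4 of the 14 (Edem2, Uggt2 and Erlec1 higher, Os9 lower), against 13.1% of all genes.

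Other disulfide isomerases and ER oxidation genes numbered 18 tested of 19, with 7 higher (50.6% of all genes were) and 11 lower. Their median was -0.03, with 0 past the threshold. Prdx4, a peroxiredoxin that uses hydrogen peroxide to drive disulfide formation, had the largest difference of this list at -0.34 ± 0.12 (log2, SE; limma adjusted p = 0.662). It was the only member of the list at an unadjusted p under 0.05, where 7.46% of all genes were. It read 3.56, 4.01 and 3.62 in knockout testes and 4.08, 4.09 and 4.05 in wild-type testes, so that knockout replicate 2 was again closest to the wild type. The membrane isomerase Tmx3 read -0.15 ± 0.08, Txndc12 0.13 ± 0.08 and Erp44, which retrieves proteins to the ER, 0.11 ± 0.08 (limma adjusted p = 0.680, 0.697 and 0.709). Groups did not overlap for 3 of the 18, Prdx4 and P4hb (both lower) and Ero1b (higher), where 13.1% of all genes had such groups.

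ER Hsp70 and Hsp90 chaperones with their partners had 13 of 16 members higher (50.6% of all genes were) and 3 lower, by small amounts, with a median of 0.03. In limma 0 were past the threshold or at an unadjusted p under 0.05. Hspa5 (BiP), the main Hsp70 of the ER and a marker of ER stress, read 5.78, 5.73 and 5.72 in knockout testes and 5.68, 5.68 and 5.66 in wild-type testes. Its difference was 0.07 ± 0.05 (log2, SE; limma adjusted p = 0.716). Groups did not overlap for 2 of the 16, Hspa5 (higher) and Cnpy2 (lower), where 13.1% of all genes had such groups. Cnpy2 read -0.10 ± 0.05, the BiP partner Dnajc3 0.14 ± 0.08 and Dnajc1 0.09 ± 0.06 (limma adjusted p = 0.684, 0.691 and 0.704).

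In the unfolded protein response and ER degradation, 5 of 18 genes were higher (50.6% of all genes were) and 13 lower. Their median was -0.05, with 0 past the threshold. Syvn1, the ubiquitin ligase of ER degradation, read 0.15 ± 0.06 and was the only member at an unadjusted p under 0.05, and the degradation channel gene Derl3 read 0.16 ± 0.08 (log2, SE; limma adjusted p = 0.662 for both). Creb3l4, a membrane-bound transcription factor found in spermatids, read 6.20, 6.43 and 6.26 in knockout testes and 6.55, 6.50 and 6.38 in wild-type testes, a difference of -0.18 ± 0.08 (adjusted p = 0.662). Eif2ak3, the stress sensor PERK, read -0.17 ± 0.10 (adjusted p = 0.693). Groups did not overlap for 1 of the 18, Syvn1, where 13.1% of all genes had such groups. Over the 5 lists, 4 of 82 tested genes (4.88%) reached an unadjusted p under 0.05, against 7.46% of all genes.

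**Figure D5:**
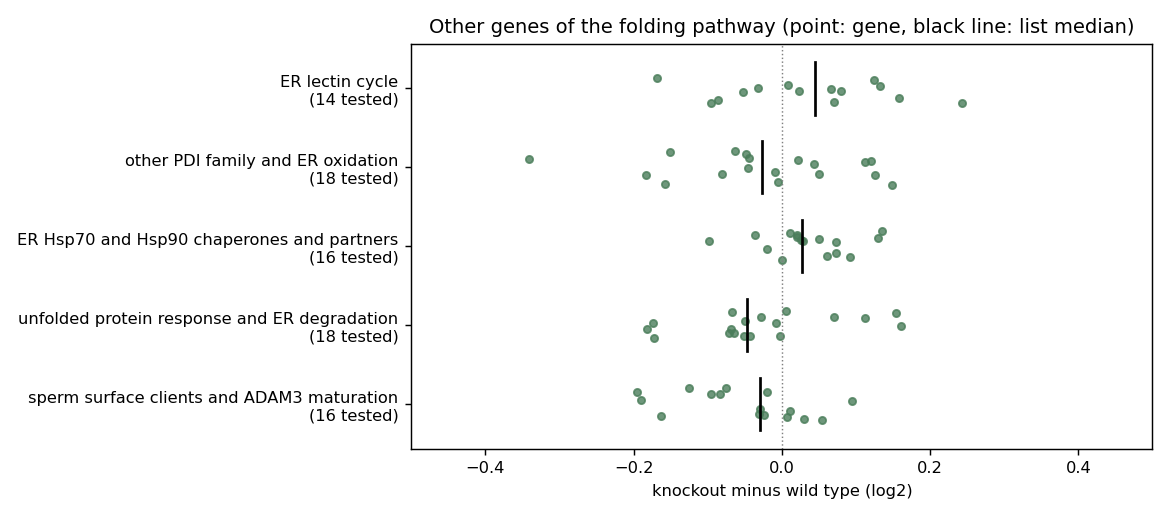
Log2 difference between knockout and wild type (positive where higher in the knockout) for each tested gene in 5 lists of the folding pathway, with a point per gene (heights within a list are spread only for legibility) and a black line at the list median. List medians lie between -0.05 and 0.04, and the point farthest from 0 is Prdx4 at -0.34.

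Genes whose array-to-array pattern was most like that of a testis-specific member were found by the root mean square difference of centred log2 values over the 6 arrays, among named genes that varied at least as much. For Calr3 these were Abhd14b (0.0182), Ccdc185 (0.0216) and Cst13 (0.0242), of 6801 candidates. Their own differences of -0.14, -0.13 and -0.15 were not called (limma adjusted p = 0.718, 0.716 and 0.716), which follows from their choice as the nearest to Calr3. For Pdilt they were Mfsd13b (0.0103), Trim21 (0.021) and Ppp6r2 (0.0211), of 9607. For Clgn they were 1810009A15Rik (0.0054), Scrib (0.0084) and Ica1l (0.0086), of 18102, a likeness among genes that hardly vary. How close the nearest of so many genes would lie by chance was not tested.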

How the data were processed

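Per the file headers, the 6 deposited scanner files come from 1-colour Agilent arrays of design 028005 read with Feature Extraction 10.7.3.1, with probe positions on mm9. Their processed signal is a background-subtracted, spatially detrended spot intensity on a linear scale, per the file headers. The deposited value table equals that intensity times 1 factor per array (within 0.1% for 100% of entries), with each column's median at 200, so it is linear, uncentred and holds no ratio; it served as an alternative.

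Spots marked as outliers were left out, log2 values were averaged per probe, and each array was scaled to its own 75th percentile. A probe was tested if every array of 1 genotype or both read it well above background (38884), and a gene was its brightest tested probe (26933). Names were updated through RefSeq (GRCm38.p6): 26762 probes matched by accession, 3819 by symbol, 639 by older symbol and 24461 kept the files' name. All 10 member probes have the same gene either way. Knockout and wild type were compared in limma 3.58.1 (R 4.3.3), two-sided, without covariates, with Benjamini-Hochberg adjustment over all genes or probes. The limma fit was tested on simulated data. The number of arrays limits the precision.

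The design text gives 3 mice per genotype. The labels number the samples 1 to 3 in both genotypes. Same-numbered samples did not deviate together (correlations of 0.052, -0.048 and -0.029 over 26933 genes), so the number was not used as a block in the main comparison. Named genes of the 5 pathway lists are the 4 of lowest p in each, beside genes whose groups did not overlap and Adam3. Cell type markers were not named by that rule. The members and lists were chosen with earlier results of these data known. Alternatives changed the normalization, background correction, filter, gene summary, variance model, array weights and value source, added the replicate block and left out each array.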

Additional observations from a re-analysis of the deposited data

How the results depend on the processing

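None of the 8 chaperone genes passed in any of 16 alternatives (128 results, 1 per gene and alternative), with a lowest limma adjusted p of 0.244. Pathway list genes past the threshold also numbered 0 in every alternative. Changes of the filter, the trend and robust variances and the replicate block left every member's difference as it was, so their signs could not turn. With those results included, the sign of a member's difference held in 118 of the 128 results. It turned for Clgn with normexp (-0.0017), array weights (-0.014) and the authors' table (-0.0002), for Canx with quantile normalization (0.0029) and for Pdia6 with array weights (-0.035). Leaving out 1 array moved Clgn from -0.0043 to 0.0281, Canx from -0.069 to 0.0229 and Pdia6 from -0.009 to 0.0919. Pairs moved likewise: Clgn minus Canx from -0.0219 to 0.0647, Pdilt minus Pdia3 from -0.1376 to 0.0026 and Pdilt minus Pdia4 from -0.0233 to 0.1575. The count of members higher in the knockout was 1 with array weights and 1 to 4 without 1 array. Over all genes, 19 passed, against 29 with normexp, 7 without a filter on dim probes, 34 with trend and robust variances, 30 with array weights, 5 with the replicate block and 5 to 24 without 1 array. Where 18 probes passed, the same alternatives gave 30, 7, 35, 29, 6 and 5 to 26. The replicate block changed no call among the members (Calr3 -0.11, adjusted p = 0.804). The cause of these shifts was not tested. Fits that left 1 array out also had fewer arrays.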
